A study of Homo sapiens with 29 samples.

Results

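The genes described here are 9 interferon response genes, OAS1, OAS3, ISG15, IFI6, IFI27, IFIT1, MX1, IRF9 and GBP2, as they were read in 2 human prostate cancer cell lines treated with inhibitors of DNA-PK, of TOR kinase or of the androgen receptor. They were taken by symbol, and each matched 1 of the 63677 features of the C4-2 count table and 1 of the 63677 features of the 22Rv1 count table. C4-2 is a castration-resistant line derived from LNCaP, and 22Rv1 was established from a xenograft that regrew after castration. Per the labels both lines were grown in hormone proficient medium in every group, and no engineered allele is named.

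C4-2 had 8 groups of 3 libraries. They were cells with no compound named (Ctrl), cells given NU7441, CC-115, CC-223 or enzalutamide (Enza), and the combinations NU7441+Enza, CC-115+Enza and CC-223+Enza. 22Rv1 had 3 libraries labelled Control and 2 given CC-115. All compounds were dosed at 1 µM, and RNA was taken 24 h later. The labels place NU7441 and CC-115 under DNA-PK inhibition, CC-223 under TOR kinase inhibition and Enza under androgen receptor antagonism. CC-115 is known to inhibit TOR kinase as well as DNA-PK. The series asks how transcription changes when DNA-PK is inhibited.

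Interferons are secreted proteins that warn cells of infection. Type I interferon binds a receptor that activates the kinases JAK1 and TYK2, which phosphorylate STAT proteins. These join with IRF9 to form the complex ISGF3, which binds interferon-stimulated response elements (ISRE) in promoters and turns on antiviral genes. Type II interferon acts through JAK1, JAK2 and STAT dimers, which bind gamma-activated sequences (GAS). Many tumour lines keep a low level of such genes without added interferon.

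The 9 genes have different roles. OAS1 and OAS3 sense double-stranded RNA and make oligoadenylates, which act as an antiviral signal. IFIT1 binds viral RNA with a foreign cap. MX1 is a GTPase that blocks viral nucleocapsids, and GBP2 is a GTPase of the guanylate-binding family, induced most strongly by type II interferon. ISG15 is a ubiquitin-like protein that is joined to other proteins. IFI6 and IFI27 are small hydrophobic membrane proteins, and IRF9 is the DNA-binding part of ISGF3.

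The bases before the start site are shown for OAS1, OAS3, IFIT1, ISG15 and IFI6, which were lower with CC-115 in C4-2. Those of IFI27, which was not called, are shown so that response elements can be compared. GBP2 and IRF9 were lower too and are not shown, GBP2 because no start site was found for it. RefSeq start sites were found for 8 of the 9 genes, in GRCh38.p14, with 11 windows in all since IFI27 has 2 and MX1 has 3. The 200 bases before a start site lie at chr12:112906762-112906961 for OAS1, chr12:112938274-112938473 for OAS3 and chr10:89392423-89392622 for IFIT1. Those of ISG15 lie at chr1:1013297-1013496, those of IFI6 at chr1:27672193-27672392 on the minus strand, and those of the first IFI27 site at chr14:94110536-94110735. Each is written in the direction of transcription. Capitals mark matches to the ISRE core, GAAA repeated after any 2 bases, or TTTC repeated likewise where the core lies on the other strand.
OAS1: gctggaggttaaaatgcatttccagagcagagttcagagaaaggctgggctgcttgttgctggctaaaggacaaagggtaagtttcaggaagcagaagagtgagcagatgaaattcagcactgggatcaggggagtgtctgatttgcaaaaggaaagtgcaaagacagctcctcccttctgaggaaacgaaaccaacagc
OAS3: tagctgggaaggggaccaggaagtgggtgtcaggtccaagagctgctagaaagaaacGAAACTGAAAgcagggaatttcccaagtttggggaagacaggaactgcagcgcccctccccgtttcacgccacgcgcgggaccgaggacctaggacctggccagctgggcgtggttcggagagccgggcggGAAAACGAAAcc
IFIT1: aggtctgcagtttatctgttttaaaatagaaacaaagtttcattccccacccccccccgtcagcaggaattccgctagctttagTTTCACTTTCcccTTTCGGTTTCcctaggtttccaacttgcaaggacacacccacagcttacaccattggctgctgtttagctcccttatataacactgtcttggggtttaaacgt
ISG15: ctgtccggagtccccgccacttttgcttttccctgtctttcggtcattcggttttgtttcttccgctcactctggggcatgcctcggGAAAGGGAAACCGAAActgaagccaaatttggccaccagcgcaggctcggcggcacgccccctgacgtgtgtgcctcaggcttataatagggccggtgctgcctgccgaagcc
IFI6: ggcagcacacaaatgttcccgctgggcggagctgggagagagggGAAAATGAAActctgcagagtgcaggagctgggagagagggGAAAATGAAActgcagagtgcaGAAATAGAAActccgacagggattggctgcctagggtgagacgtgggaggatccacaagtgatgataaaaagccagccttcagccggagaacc
IFI27: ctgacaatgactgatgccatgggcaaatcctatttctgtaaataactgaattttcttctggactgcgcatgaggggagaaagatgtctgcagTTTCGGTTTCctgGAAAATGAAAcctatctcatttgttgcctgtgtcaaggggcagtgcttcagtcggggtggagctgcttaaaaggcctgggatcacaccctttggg

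An ISRE core was present in the 300-base window (250 before to 50 after the start) of 6 of the 8 genes, OAS3, ISG15, IFI6, IFI27, IFIT1 and MX1. Of 27305 gene symbols in the RefSeq table, 4.38% held it in a window of the same length, as did 3.57% of the 35116 windows. OAS3 carried 2 cores, starting 143 and 12 bases before the start site. In ISG15 the cores began 113 and 107 bases before it and overlapped by 4 bases, and IFI6 had 3, the farthest at 156 and the nearest at 93 bases. The cores of IFIT1 began 116 and 103 bases before the start, and those of IFI27 108 and 95 bases before its first site. MX1 held a core 196 bases before the third of its sites and another just after the first. The GAS core TTCNNNGAA was found in OAS1, IFI27, MX1 and IRF9, against 9.38% of all symbols and 7.66% of all windows. In IFI27 and at the third MX1 site it overlapped an ISRE core. A match describes letters only, and no match in a window says nothing of what binds there.

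**Figure D1:**
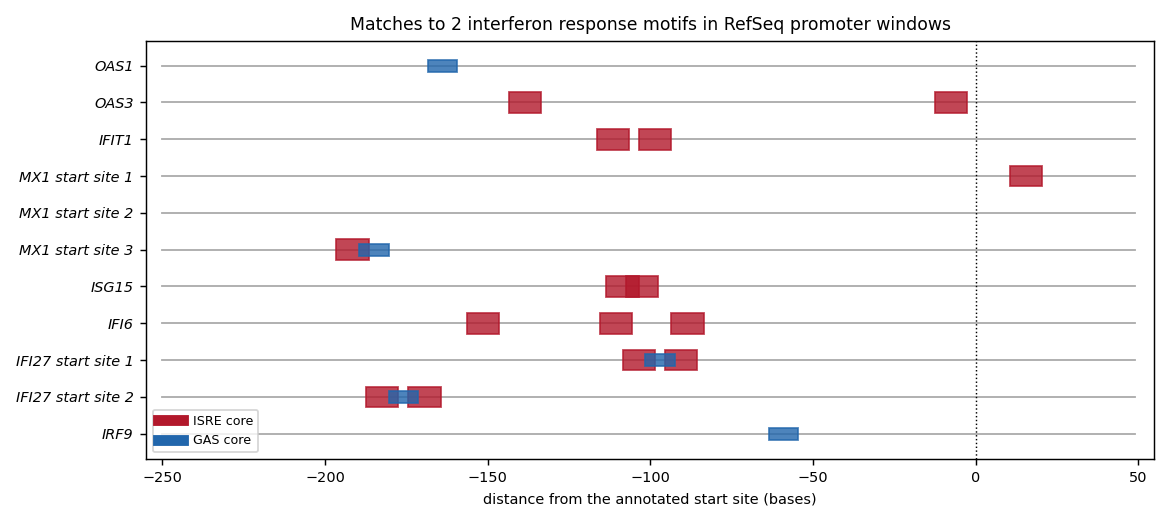
Positions of ISRE and GAS core matches in the 11 promoter windows of 8 genes, as distance from the start site in bases (horizontal axis), with a row for each start site. ISG15, IFI6, IFIT1 and the first IFI27 site carry ISRE cores that begin between 156 and 93 bases before the start.

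Libraries held 29.58 M to 44.86 M counts in C4-2 and 31.61 M to 44.91 M in 22Rv1. The luminal prostate markers were present in both lines, with 16753 to 167252 reads of KLK3 per C4-2 library and 1195 to 1921 in 22Rv1. Defining markers of leukocytes and vessels were near 0, with 0 to 7 reads of PTPRC per C4-2 library, 0 or 1 of CD3D and none of PECAM1. Some marker sums still moved with treatment in C4-2, where the 10 luminal markers summed to 5176 to 5389 CPM in Ctrl and to 12300 to 12490 CPM with CC-115. That sum also left the Ctrl range with NU7441 (6348 to 6962 CPM), CC-223 (8893 to 9143) and Enza (3016 to 3435). The 5 fibroblast markers summed to 2.07 to 3.53 CPM in Ctrl and 4.20 to 11.9 with Enza. The 4 T cell markers summed to 0.994 to 1.46 CPM in Ctrl and 1.74 to 2.00 with CC-115, nearly all from CD8A (26 to 118 reads). The 5 myeloid markers summed to 1.22 to 2.10 and 2.26 to 2.52 CPM, and the 3 endothelial markers to 3.59 to 4.25 and 1.43 to 2.25 CPM, with 24 to 162 reads of VWF. In 22Rv1 the 5 fibroblast markers went from 3.60 to 5.30 CPM to 9.53 to 11.9, mostly COL1A1 (69 to 349 reads). The 22Rv1 sums of T cell markers (0.353 to 0.601 and 0.935 to 1.01 CPM), myeloid markers (0.506 to 1.19 and 1.27 to 1.29) and B cell markers (0.565 to 1.42 and 0.315 to 0.534) also did not overlap between Control and CC-115. The part of these markers in the results was not tested. The first Enza library and the first CC-115+Enza library stood apart from their groups. The standard deviation of their log2 deviations from the mean of their group's other libraries was 0.646 and 0.661. It was 0.273 to 0.464 in the other C4-2 libraries. For the 9 genes, the changes in comparisons that use these libraries are also given without them, from a fit of the other 22 C4-2 libraries. That fit has its own filter and spread, and some calls moved in it in comparisons that do not use them. The labels do not say whether replicates were separate cultures, so p-values measure only the spread between these libraries. In bulk RNA, fewer cells that express a gene and less RNA per cell cannot be told apart.

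Untreated cells differed widely in how much of each gene they held. Levels are CPM, counts scaled to a common library size by TMM within each line's table, and between genes they are compared per kilobase of exon. In C4-2 Ctrl, ISG15 stood highest at 40.8 CPM per kilobase, followed by IFI6 at 4.61, OAS3 at 2.84 and GBP2 at 1.30. MX1 was at 0.434 and IRF9 at 0.363 CPM per kilobase. IFIT1, IFI27 and OAS1 were lowest, at 0.167, 0.166 and 0.139 CPM per kilobase, from 15 to 28 reads per library. In 22Rv1 Control, scaled separately, ISG15 was at 276 CPM per kilobase and OAS3 at 2.30, while IFI6 was at 0.482 and GBP2 at 0.0914. OAS1, IFI27 and IFIT1 rested on 0 to 10 reads per 22Rv1 Control library.

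**Figure D2:**
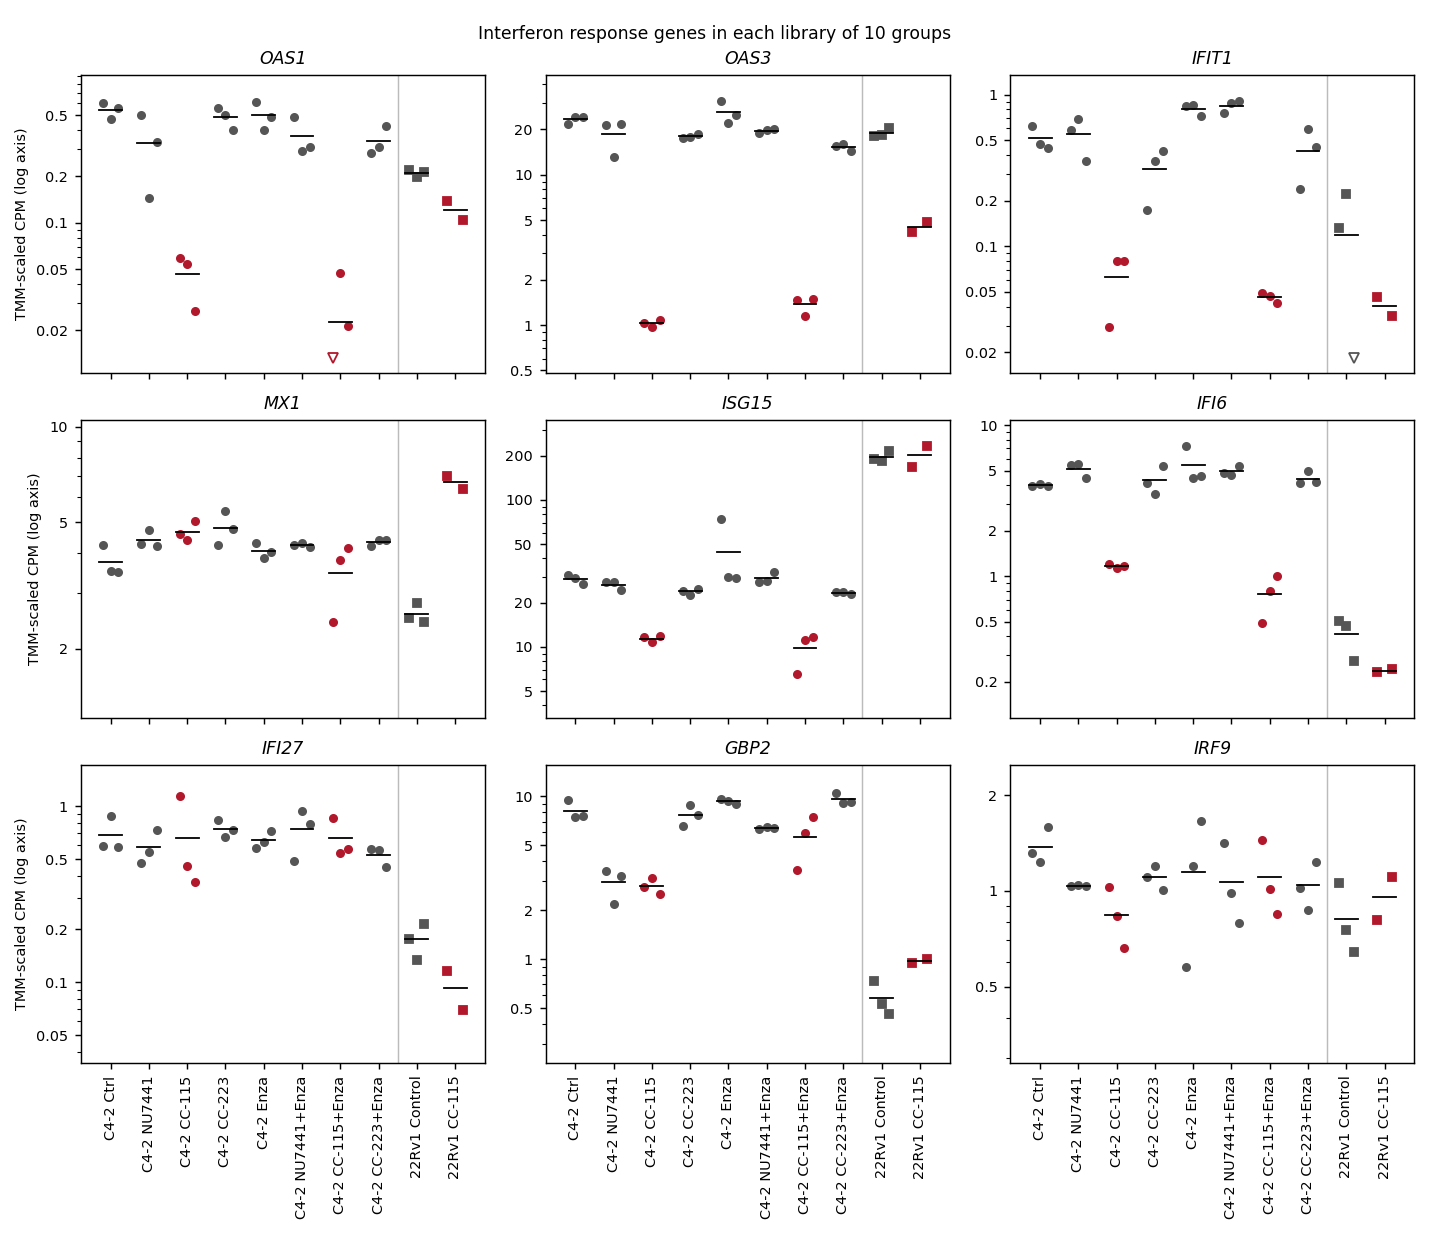
Level of each of the 9 genes in every library, in TMM-scaled CPM on a log axis, by group, with points for libraries and bars for group means. In C4-2, OAS1, OAS3, ISG15, IFI6 and IFIT1 are lower in the 6 libraries with CC-115 than in the other 18, and GBP2 is lower with NU7441 as well.

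In C4-2, CC-115 lowered 7 of the 9 genes. OAS3 fell most, 22.7-fold, and OAS1, IFIT1, IFI6, GBP2, ISG15 and IRF9 also fell. MX1 and IFI27 did not pass the test. The test was edgeR's quasi-likelihood F-test, a gene was called at a Benjamini-Hochberg adjusted p under 0.05 over 22860 genes, and the same fit gives every adjusted p below for C4-2. Of all genes tested, 26.0% were called lower with CC-115. The median log2 fold change was -1.53 over the 9 genes and 0.03 over all genes. DESeq2 also called 7 of the 9.

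OAS3 (ENSG00000111331, hg19 chr12:113376157-113411054, plus strand) read 21.7, 24.2 and 24.2 CPM in Ctrl. It read 1.03, 0.967 and 1.09 CPM with CC-115, from 35, 36 and 41 reads. Every CC-115 library was far below every Ctrl library. The log2 fold change was -4.51 ± 0.18 (SE), with a 95% interval of -4.88 to -4.13 and an adjusted p of 3.24e-16.

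OAS1 (ENSG00000089127, hg19 chr12:113344582-113369990, plus strand), its neighbour on the chromosome, was scarce in all groups. It read 0.597, 0.473 and 0.557 CPM in Ctrl, from 20, 15 and 20 reads, and 0.0587, 0.0537 and 0.0265 CPM with CC-115, from 2, 2 and 1 reads. The groups did not overlap. Summed over libraries, 5 reads against 55 gave a level 11.9-fold lower, with a 95% counting interval of 4.79 to 38.0. The fitted log2 fold change was -3.47 ± 0.51 (SE) with an adjusted p of 1.93e-06.

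IFIT1 (ENSG00000185745, hg19 chr10:91152303-91163745, plus strand) was as scarce as OAS1. It read 0.626, 0.473 and 0.446 CPM in Ctrl, from 21, 15 and 16 reads, and 0.0294, 0.0805 and 0.0795 CPM with CC-115, from 1, 3 and 3 reads. All CC-115 libraries were below all Ctrl libraries. The ratio of 7 to 52 reads was 8.01-fold lower, with a counting interval of 3.62 to 20.9, and the fitted log2 fold change was -2.94 ± 0.45 (SE, adjusted p 4.38e-06).

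IFI6 (ENSG00000126709, hg19 chr1:27992572-27998729, minus strand) read 3.97, 4.07 and 3.93 CPM in Ctrl and 1.20, 1.13 and 1.17 CPM with CC-115. Replicates lay close together and the groups far apart. Its log2 fold change was -1.77 ± 0.21 (SE), or 3.41-fold lower, with an adjusted p of 6.64e-08.

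ISG15 (ENSG00000187608, hg19 chr1:948803-949920, plus strand), the most abundant of the 9, read 30.9, 29.2 and 26.9 CPM in Ctrl and 11.7, 10.7 and 11.8 CPM with CC-115. No library of a group reached the other. ISG15 was 2.55-fold lower, a log2 fold change of -1.35 ± 0.23 (SE) with an adjusted p of 2.43e-05.

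GBP2 (ENSG00000162645, hg19 chr1:89571815-89616139, minus strand) read 9.46, 7.47 and 7.55 CPM in Ctrl and 2.79, 3.17 and 2.52 CPM with CC-115, again without overlap. The log2 fold change was -1.53 ± 0.19 (SE) with an adjusted p of 2.44e-07. GBP2 shares 621 exonic bases with GBP7, which held 0 to 2 reads per C4-2 library.

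IRF9 (ENSG00000213928, hg19 chr14:24630262-24635774, plus strand), the DNA-binding part of ISGF3, read 1.31, 1.23 and 1.59 CPM in Ctrl and 1.03, 0.832 and 0.663 CPM with CC-115. The highest CC-115 library lay just under the lowest Ctrl library. The log2 fold change was -0.72 ± 0.28 (SE) with an adjusted p of 0.0329. The call was lost without the second or the third CC-115 library or without the first or the third Ctrl library, with adjusted p-values of 0.058 to 0.154. IRF9 shares 1838 exonic bases on the same strand with the feature ENSG00000259529, which held 14 to 103 reads per C4-2 library, so its reads are uncertain.

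MX1 (ENSG00000157601, hg19 chr21:42792231-42831141, plus strand) lay on the other side in level. It read 4.24, 3.50 and 3.48 CPM in Ctrl and 4.58, 4.40 and 5.04 CPM with CC-115. The groups did not overlap, but the log2 fold change of 0.32 ± 0.15 (SE) had an adjusted p of 0.069 and was not called. It passed the threshold in 5 of 14 alternative fits, among them the fit without small and mitochondrial RNA, with an adjusted p of 0.0492.

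IFI27 (ENSG00000165949, hg19 chr14:94571182-94583033, plus strand) read 0.597, 0.883 and 0.585 CPM in Ctrl and 1.15, 0.457 and 0.371 CPM with CC-115. The first CC-115 library was above, and the other 2 below, all Ctrl libraries. The log2 fold change was -0.08 ± 0.33 (SE), with a 95% interval of -0.76 to 0.61 (adjusted p 0.865). At 14 to 39 reads per library, a difference of that size was not detectable.

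**Figure D3:**
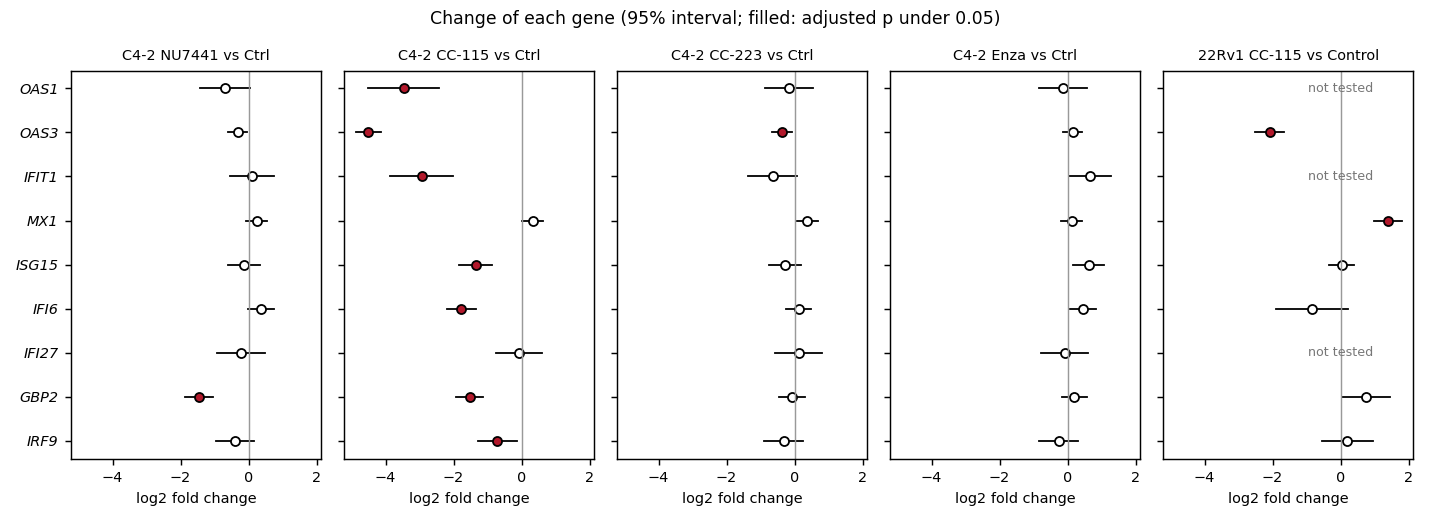
Log2 fold change of each gene with its 95% interval for each compound against Ctrl in C4-2 and for CC-115 in 22Rv1, with filled points for called genes. CC-115 in C4-2 has 7 filled points, NU7441 has GBP2, CC-223 has OAS3, Enza has none, and 22Rv1 has OAS3 below 0 and MX1 above 0.

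NU7441, the other compound labelled as a DNA-PK inhibitor, lowered GBP2 and called no other gene of the 9. Of all genes, 1.11% were called lower with it. GBP2 read 3.48, 2.18 and 3.24 CPM with NU7441, all below the 7.47 of the lowest Ctrl library. Its log2 fold change was -1.46 ± 0.19 (SE, adjusted p 1.28e-04). OAS3 read 21.4, 13.1 and 21.7 CPM, with the second library lowest, and its log2 fold change of -0.32 ± 0.14 (SE) had an adjusted p of 0.216. OAS1 was at 0.504, 0.145 and 0.336 CPM (log2 fold change -0.71 ± 0.36, SE, adjusted p 0.315). IFI6 read 5.41, 5.54 and 4.43 CPM, above all Ctrl libraries, with a log2 fold change of 0.36 ± 0.18 (SE, adjusted p 0.304). Without the first Enza and first CC-115+Enza libraries IFI6 was called too (0.37, adjusted p 0.029), in a fit that called 21.7% of all genes for NU7441.

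CC-223, which the labels give as a TOR kinase inhibitor, lowered OAS3 and called none of the other 8. The share of all genes called lower was 10.9%. OAS3 read 17.6, 17.8 and 18.6 CPM, below all Ctrl libraries, with a log2 fold change of -0.38 ± 0.14 (SE, adjusted p 0.0478). That call was lost when any CC-223 library, or the second or the third Ctrl library, was left out (adjusted p 0.062 to 0.085). IFIT1 read 0.173, 0.367 and 0.428 CPM, below Ctrl in every library, with a log2 fold change of -0.65 ± 0.35 (SE, adjusted p 0.18). ISG15 read 23.9, 22.7 and 24.9 CPM (-0.28 ± 0.23, SE, adjusted p 0.395), and without the first Enza and first CC-115+Enza libraries it was called, at an adjusted p of 0.00109. That fit called 42.8% of all genes for CC-223, higher or lower. MX1 read 4.25, 5.41 and 4.77 CPM, all above Ctrl (0.36 ± 0.15, SE, adjusted p 0.0775), and was called without those libraries as well, at 0.00858. GBP2 read 6.54, 8.82 and 7.71 CPM and overlapped Ctrl.

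The 3 inhibitors shared dose and time, so they were also compared directly, and CC-115 differed from both others in OAS1, OAS3, IFIT1, IFI6 and ISG15. CC-115 was below NU7441 in these 5 genes, where 24.5% of all genes were called lower. The log2 fold changes were -4.18 ± 0.18 for OAS3, -3.04 ± 0.45 for IFIT1 and -2.76 ± 0.54 for OAS1. For IFI6 the value was -2.14 ± 0.21, and for ISG15 -1.21 ± 0.23 (SE throughout). CC-115 was below CC-223 in the same 5 genes and in GBP2, against 22.7% of all genes. The largest of these was OAS3 at -4.13 ± 0.18 and the smallest ISG15 at -1.06 ± 0.24 (SE).

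GBP2 divided the compounds in another way. It was lower with NU7441 than with CC-223, by a log2 fold change of -1.37 ± 0.20 (SE, adjusted p 4.66e-05), where 4.12% of all genes were called lower. It was also lower with CC-115 than with CC-223 (-1.44 ± 0.20, SE, adjusted p 1.22e-06). Between CC-115 and NU7441 the log2 fold change of GBP2 was -0.07 ± 0.21 (SE), with a 95% interval of -0.50 to 0.36 (adjusted p 0.81). No other gene of the 9 was called between NU7441 and CC-223. The 3 compounds were each compared with the same Ctrl libraries, so their changes from Ctrl are not independent of each other.

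Enza alone called none of the 9 genes, where 16.1% of all genes were called. By edgeR's test 3 of the 9 had an unadjusted p under 0.05, and DESeq2 also called 0. ISG15 read 74.6, 29.7 and 29.2 CPM with Enza, so that the first library was high and the others lay in the range of Ctrl. The log2 fold change of ISG15 was 0.62 ± 0.23 (SE, adjusted p 0.0628), and -0.02 without the first Enza library (adjusted p 0.958). IFI6 read 7.23, 4.47 and 4.63 CPM, with the same library highest (0.45 ± 0.18, SE, adjusted p 0.0924). Without that library the log2 fold change of IFI6 was 0.15 (adjusted p 0.63). IFIT1 read 0.849, 0.855 and 0.726 CPM, above all Ctrl libraries, with a log2 fold change of 0.65 ± 0.30 (SE, adjusted p 0.14), or 0.63 without the libraries that stood apart. GBP2 read 9.64, 9.38 and 8.95 CPM and overlapped Ctrl.

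Added to Enza, CC-115 lowered 6 of the 9 genes, and 30.2% of all genes were called lower in that comparison. OAS3 read 30.9, 22.2 and 24.9 CPM with Enza and 1.47, 1.16 and 1.49 CPM with CC-115+Enza, a log2 fold change of -4.24 ± 0.17 (SE, adjusted p 3.39e-16). OAS1 kept 0, 2 and 1 reads in the 3 libraries, and 3 reads against 46 gave a level 21.4-fold lower (counting interval 6.87 to 107). IFIT1 kept 2 reads in each library, and 6 reads against 76 gave a level 17.6-fold lower (counting interval 7.74 to 49.6). OAS1 and IFIT1 were thus at or near the limit of detection in every library with CC-115 and Enza. Without the first Enza and first CC-115+Enza libraries the fitted log2 fold changes were -4.14 for OAS3, -3.58 for OAS1 and -4.05 for IFIT1, and all were called.

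IFI6 read 0.491, 0.802 and 0.998 CPM with CC-115+Enza, all below Enza (log2 fold change -2.81 ± 0.21, SE, or -2.32 ± 0.19 without the libraries that stood apart). ISG15 read 6.58, 11.2 and 11.6 CPM, with a log2 fold change from Enza of -2.18 ± 0.24 (SE), or -1.36 ± 0.09 without them. GBP2 read 3.51, 5.94 and 7.43 CPM, and its log2 fold change of -0.72 ± 0.18 (SE) had an adjusted p of 0.00131. Without those libraries that of GBP2 was -0.45 ± 0.14 (SE, adjusted p 0.0062). IRF9, called lower with CC-115 alone, read 1.45, 1.01 and 0.85 CPM, and its log2 fold change from Enza was -0.06 ± 0.27 (SE, adjusted p 0.866). Without the libraries that stood apart it was -0.60 ± 0.25 (SE), which was called (adjusted p 0.0393), so the IRF9 result rests on them.

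CC-223 added to Enza lowered OAS3, ISG15 and IFIT1, where 15.0% of all genes were called lower. OAS3 read 15.5, 16.1 and 14.4 CPM, below every Enza library (log2 fold change -0.76 ± 0.14, SE, adjusted p 2.07e-04), or -0.62 ± 0.13 without the libraries that stood apart. ISG15 read 23.7, 23.7 and 22.9 CPM, with a log2 fold change of -0.92 ± 0.23 (SE, adjusted p 0.00329). Without the first Enza library that value was -0.32 (adjusted p 0.102), and without the first CC-115+Enza library as well it was -0.33 ± 0.08 (SE) and called (adjusted p 7.34e-04). IFIT1 read 0.238, 0.59 and 0.45 CPM (log2 fold change -0.94 ± 0.30, SE, adjusted p 0.0219), a call lost in 5 of 13 alternatives and kept without the libraries that stood apart (-0.92).

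NU7441 added to Enza called none of the 9 genes, where 0.381% of all genes were called. By edgeR's test 3 had an unadjusted p under 0.05, and DESeq2 called 0. GBP2 read 6.28, 6.52 and 6.43 CPM, below the 8.95 of the lowest Enza library, with a log2 fold change of -0.54 ± 0.18 (SE, adjusted p 0.168). It was called without the first Enza and first CC-115+Enza libraries (-0.52, adjusted p 0.0258).

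Enza raised GBP2 in cells that also had NU7441 or CC-115. From NU7441 to NU7441+Enza the mean rose from 2.96 to 6.41 CPM, a log2 fold change of 1.11 ± 0.20 (SE, adjusted p 2.89e-04), where 2.75% of all genes were called higher. From CC-115 to CC-115+Enza it rose from 2.83 to 5.63 CPM (1.00 ± 0.20, SE, adjusted p 4.46e-04), where 11.7% were called higher, and it was called without the libraries that stood apart as well (adjusted p 9.75e-09). From Ctrl to Enza the log2 fold change was 0.19 ± 0.18 (SE, adjusted p 0.492), or 0.17 without those libraries. From CC-223 to CC-223+Enza it was 0.32 ± 0.18 (SE, adjusted p 0.305), and was called without them (0.32, adjusted p 0.0333). MX1 was the other gene called between CC-115 and CC-115+Enza, at -0.43 ± 0.15 (SE, adjusted p 0.0342). It read 2.43 CPM in the first CC-115+Enza library and at most 4.16 in the others, with 12.2% of all genes called lower, and the call was lost in 6 of 14 alternatives (-0.23, adjusted p 0.171, without the 2 libraries that stood apart). Enza added to CC-223 called none of the 9, where 12.4% of all genes were called. No gene of the 9 had an unadjusted p under 0.05 in that comparison by edgeR's test, and DESeq2 called 0.

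Whether the effect of an inhibitor differed with Enza was tested by the interaction term, which called none of the 9 genes for NU7441, CC-115 or CC-223. The shares of all genes called were 0%, 3.27% and 0.376%. By edgeR's test 1, 4 and 0 of the 9 had an unadjusted p under 0.05, and DESeq2 called 0, 1 and 0. For CC-115 the interaction was 0.81 ± 0.27 (SE) on the log2 scale in GBP2, with an adjusted p of 0.0973. Without the first Enza and first CC-115+Enza libraries it was 1.08 ± 0.20 (SE, adjusted p 2.37e-04), which passes the threshold. For IFI6 it was -1.04 ± 0.30 (SE, adjusted p 0.0578), which DESeq2 called (adjusted p 0.0302), and -0.55 ± 0.26 without those libraries (adjusted p 0.244). For NU7441 the interaction of GBP2 was 0.92 ± 0.27 (SE, adjusted p 0.692), and 0.94 ± 0.19 without them (adjusted p 0.075).

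**Figure D4:**
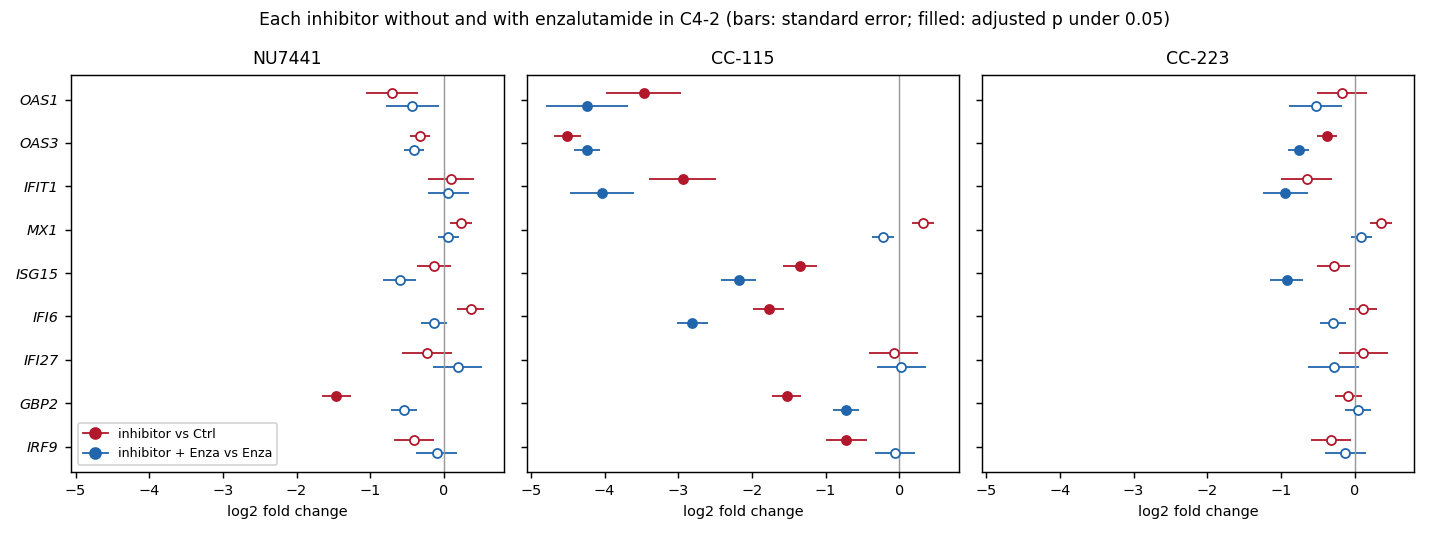
Log2 fold change of each gene for each inhibitor without Enza (inhibitor against Ctrl) and with Enza (inhibitor+Enza against Enza), with bars for the standard error and filled points for called genes. For CC-115 the 2 points of GBP2 lie at -1.53 and -0.72 and those of OAS3 at -4.51 and -4.24.

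Ordered by mean level over the 8 C4-2 groups, the genes fell into different orders. For OAS3 the order from the lowest was CC-115, CC-115+Enza, CC-223+Enza, CC-223, NU7441, NU7441+Enza, Ctrl and Enza. The ranges of neighbours overlapped from CC-223 to NU7441+Enza and between Ctrl and Enza, and elsewhere neighbours were apart. For OAS1, ISG15 and IFIT1 the groups CC-115+Enza and CC-115 overlapped each other at the bottom and were apart from the next group. For IFI6 CC-115+Enza lay below CC-115, and both lay below the other 6, which overlapped in a chain. GBP2 had CC-115 and NU7441 overlapping at the bottom, then CC-115+Enza and NU7441+Enza overlapping, and the other 4 groups above by mean. The highest CC-115+Enza library, at 7.43 CPM, still lay above the lowest CC-223 library, at 6.54 CPM. IFI27 had no break between neighbours in its order.

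In 22Rv1, CC-115 lowered OAS3 and raised MX1, and the other genes tested did not pass. Enough reads were present to test 6 of the 9 genes among 19392. The share of all genes called was 20.7% lower and 20.2% higher. OAS3 read 18.9 ± 1.26 CPM (SD, n = 3) in Control and 4.13 and 4.86 CPM with CC-115. The groups were far apart, with OAS3 4.22-fold lower (log2 fold change -2.08 ± 0.19, SE, adjusted p 2.85e-04).

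MX1 read 2.57 ± 0.196 CPM (SD, n = 3) in 22Rv1 Control and 7.02 and 6.35 CPM with CC-115. Both CC-115 libraries were above all Control libraries, and MX1 was 2.60-fold higher (log2 fold change 1.38 ± 0.18, SE, adjusted p 0.00101). GBP2 was scarce in 22Rv1, at 0.729, 0.532 and 0.46 CPM in Control and 0.947 and 1.01 with CC-115. Its log2 fold change of 0.75 ± 0.31 (SE) had an adjusted p of 0.0869. GBP7, with which it shares exonic bases, held 2 to 13 reads per 22Rv1 library.

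ISG15 read 190, 184 and 215 CPM in 22Rv1 Control and 168 and 234 CPM with CC-115, so that the 2 treated libraries lay on either side of Control. Its log2 fold change was 0.03 ± 0.16 (SE), with a 95% interval of -0.33 to 0.40 (adjusted p 0.885). IFI6 read 0.508, 0.465 and 0.276 CPM against 0.231 and 0.243, from 7 to 23 reads per library (-0.83 ± 0.46, SE, adjusted p 0.182). IRF9 read 1.06, 0.753 and 0.644 CPM against 0.808 and 1.11 (0.20 ± 0.32, SE, adjusted p 0.656).

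OAS1, IFIT1 and IFI27 held too few reads in 22Rv1 to be tested. OAS1 had 10, 9 and 7 reads in Control and 6 and 3 with CC-115. IFIT1 had 6, 10 and 0 reads in Control and 2 and 1 with CC-115. IFI27 had 8, 6 and 7 reads in Control and 5 and 2 with CC-115. Counting intervals of these ratios, which cover counting error only, all held 1. Small RNA classes, 7SK among them, and mitochondrial RNA took at most 12.3% of counts in 22Rv1 Control and at least 16.6% with CC-115. With those features removed, OAS3 (-2.08) and MX1 (1.38) were called as before.

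The effect of CC-115 differed between the lines in 5 of the 9 genes, all less negative or more positive in 22Rv1, where 15.2% of all 22922 genes were called in that direction. The difference, 22Rv1 minus C4-2, was 2.47 ± 0.17 (SE) on the log2 scale for OAS3 (adjusted p 4.29e-07), so OAS3 fell in both lines and by more in C4-2. For ISG15 it was 1.43 ± 0.16 (adjusted p 3.89e-05) and for GBP2 2.32 ± 0.30 (adjusted p 1.02e-04). For MX1 it was 1.11 ± 0.19 (adjusted p 8.18e-04). For OAS1 it was 2.76 ± 0.67 (adjusted p 0.00815), which rests on the few reads above and was lost without the first 22Rv1 CC-115 library (2.47, adjusted p 0.0882). OAS1, IFIT1 and IFI27 were not tested in 22Rv1 alone and passed the filter of the joint fit through their C4-2 reads. IFI6 and IRF9 had adjusted p-values of 0.0954 and 0.0746, and the intervals of IFIT1 (-1.56 to 4.39) and IFI27 (-2.53 to 1.18) were wide.

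Beyond the 9 genes, 119 other genes of the interferon pathway were counted by role, of which 81 had enough reads in C4-2. With CC-115, 40 were lower, 16 were higher and 25 were not called, with a median log2 fold change of -0.40 against 0.03 over all genes tested, of which 26.0% were lower and 27.6% higher. Effector genes were mostly on the lower side and the JAK and STAT genes mostly on the higher. Among the IFIT and IFITM families, which restrict viral RNA and viral entry, 5 of 6 were lower and none was higher. Of 22 other interferon-stimulated genes, 15 were lower and 2 higher, and of 14 antigen presentation genes 8 were lower and 2 higher.

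Effectors that fell with CC-115 included CMPK2, a mitochondrial nucleotide kinase, from 6.37 to 0.713 CPM (log2 fold change -3.16). SAMHD1, which degrades nucleotides, fell by 1.46 on the log2 scale and IFI35 by 1.39. IFIT5, an IFIT family RNA-binding protein, fell by 2.13, and UBE2L6, the enzyme that carries ISG15 to its targets, by 2.46. NLRC5, the activator of MHC class I genes, fell from 1.61 to 0.171 CPM, and TAP2 and B2M fell by 1.35 and 0.77 on the log2 scale. GBP1, the guanylate-binding relative of GBP2, fell from 3.60 to 0.284 CPM (-3.65). ISG20, a ribonuclease, went against these and rose from 2.70 to 19.2 CPM (2.83), and HERC5, the ligase for ISG15, rose by 0.72.

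Of 6 JAK and STAT genes, 4 were higher and 1 lower with CC-115, where 27.6% of all genes were higher and 26.0% lower. JAK1 rose from 9.85 to 63.6 CPM, a log2 fold change of 2.69 ± 0.15 (SE, adjusted p 1.09e-13), and JAK2 and STAT2 rose by 0.99 and 0.97. STAT3 fell by 0.80. Of 6 IRF genes 2 were higher and 1 lower, which is near the shares of all genes. IRF1 fell by 0.93. Among 9 sensors and adaptors, 5 were lower and 2 higher. IFIH1 and TICAM1 fell by 0.46 and 0.66, while DHX58 and RIGI rose by 0.67 and 0.45. The receptor chain IFNAR2 fell by 0.88 and the feedback protease USP18, which removes ISG15, by 0.99.

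**Figure D5:**
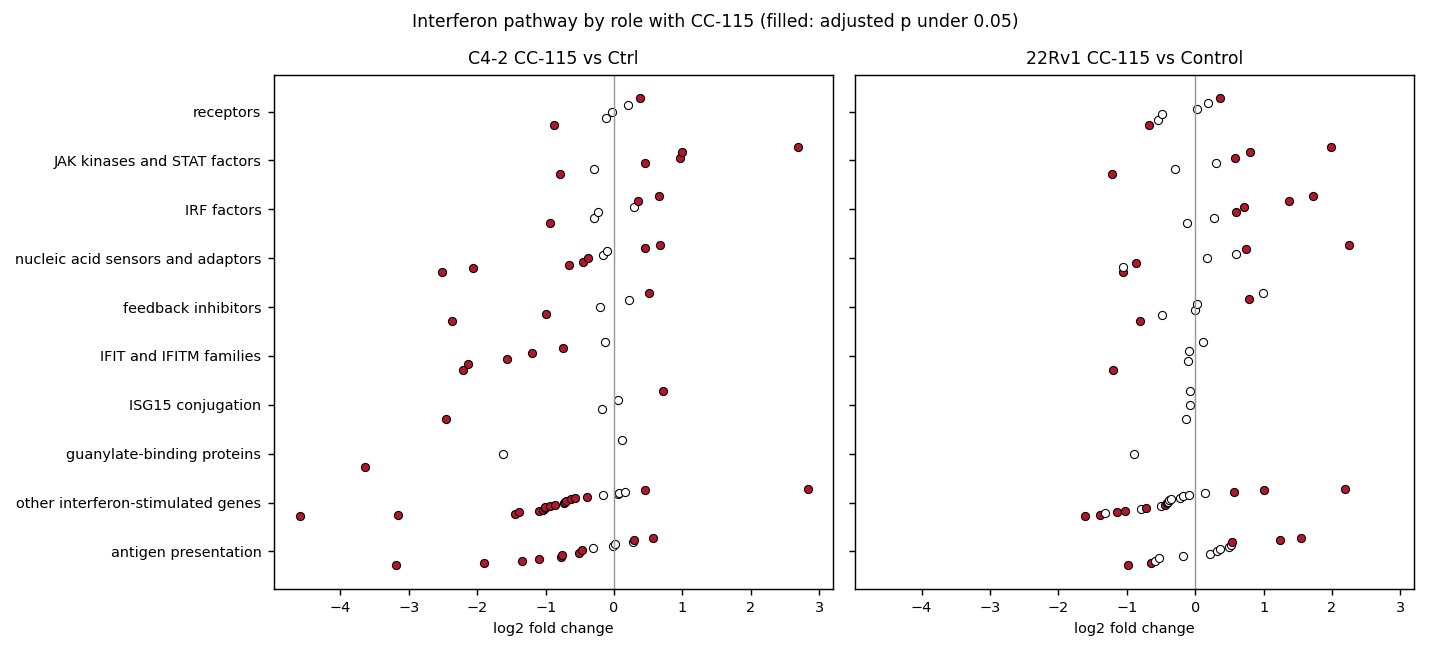
Log2 fold change with CC-115 of tested pathway genes other than the OAS family in C4-2 (left) and 22Rv1 (right), by role, with filled points for called genes. In C4-2 the IFIT and IFITM families have a median of -1.38 and the JAK and STAT genes of 0.71.

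An ISRE core was found in the promoter windows of 20 of 34 pathway genes lower with CC-115 in C4-2 (58.8%). It was found in 3 of 10 that were higher and in 7 of 17 that were not called (41.2%). With Enza it was in 5 of 10 lower, 3 of 9 higher and 22 of 42 genes not called. These lists hold known interferon targets, so a high share is a property of the lists. None of the 21 interferon ligand genes had enough reads to be tested. The highest count of any ligand was 5 reads in C4-2 and 10 in 22Rv1, both of IFNK, and 11 and 18 of the 21 had no read in any library.

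The other compounds moved fewer pathway genes. NU7441 called 3 of 81, against 3.39% of all genes, or 14 higher and 6 lower of 82 in the fit without the libraries that stood apart. GBP1 was lower (log2 fold change -1.93 ± 0.22, SE, adjusted p 3.13e-05), as GBP2 was. TAPBP, a peptide loading protein, was higher by 0.36 (lost in 9 of 14 alternatives). RSAD2, an antiviral enzyme of low level that was named after its value was seen, was higher as well, a call lost in 6 of 12 alternatives. CC-223 called 15 higher and 7 lower of 81, against 12.9% and 10.9% of all genes, or 24 higher and 12 lower of 82 in that other fit. HERC5 and HERC6 rose by 0.90 and 0.71, ISG20 by 0.95 and SP100 by 0.62, while NLRC5 fell by 1.34, GBP1 by 0.83 and TAP2 by 0.59.

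With Enza, 14 pathway genes were higher and 12 lower of 81, against 9.35% and 6.75% of all genes, or 12 higher and 12 lower of 82 without the libraries that stood apart. IRF1, a factor induced by type II interferon, rose from 2.10 to 5.39 CPM (log2 fold change 1.36 ± 0.15, SE), and NLRC5 rose by 1.12. HERC5 fell from 7.49 to 2.19 CPM (-1.78), HERC6 fell by 0.84 and EIF2AK2, the RNA-activated kinase PKR, fell by 0.68. HERC5 and HERC6 were thus higher with CC-223 and lower with Enza.

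In 22Rv1, CC-115 raised 17 and lowered 16 of 74 pathway genes tested, shares near the 20.2% and 20.7% of all genes. JAK1 rose by 1.99, STAT2 by 0.80, ISG20 by 2.18, DHX58 by 2.25 and IRF7 by 1.72. SAMHD1 fell by 1.62 and CMPK2 by 1.39. HLA-E and TAPBP rose by 1.54 and 1.24. The effect differed between lines for 30 of 83 genes, 24 of them in the direction of 22Rv1 and 6 in that of C4-2, against 15.2% and 12.3% of all genes. The difference, 22Rv1 minus C4-2, was -0.65 for JAK1. It was 1.42 for IRF7, 1.63 for DHX58, 1.02 for HLA-E and 1.83 for CMPK2.

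All 6 libraries with CC-115 lay below the other 18 C4-2 libraries in 5 of the genes. High correlations among these 5 over all 24 libraries therefore follow from the CC-115 groups. Pearson correlations of log2 CPM among OAS1, OAS3, ISG15, IFI6 and IFIT1 lay between 0.820 and 0.942. The libraries share compounds and depth, so these values are a description. Over the 18 libraries without CC-115 the same correlations ranged from -0.195 to 0.693. GBP2 correlated with the 5 at 0.426 to 0.590, and IFI27, MX1 and IRF9 with any of the 9 at -0.436 to 0.361.

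The protein-coding genes whose pattern over the 24 libraries was most like each of the 9 were mostly outside the pathway. These correlations include the CC-115 libraries and were not recomputed without them, so they too are a description. For OAS3 they were GINS2, HELLS and E2F2 (r 0.991 each), and for OAS1 MCM6, RAB15 and MCM5 (0.954 to 0.958). For ISG15 they were ANAPC11, USP18 and HPS6 (0.987 to 0.993), for IFI6 SEPTIN8, ATOX1 and CHST10 (0.985 to 0.987), and for IFIT1 ZCCHC24, PCBP4 and LYN (0.958 to 0.966). GBP2 was most like SPRED1, MYL9 and ATXN7L2 (0.845 to 0.877), and MX1 most like RPL13A, RCBTB1 and RPL4 (0.857 to 0.870). IRF9 (0.759 to 0.797 with TNRC6A, USP14 and RNF111) and IFI27 (0.534 to 0.648 with CLDN2, PLXNC1 and MCCD1) had no close match.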

How the data were processed

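Whole-number read counts of Ensembl features, not normalized, were deposited in 1 table for each cell line, from total RNA libraries of a stranded kit that depletes ribosomal RNA. The authors aligned reads to hg19 with STAR 2.5.2a and counted them with featureCounts 1.5.0-p3, per the submitters' processing notes, which also name DESeq2 1.14.1. Not given in the sources used here are the annotation release, the strand setting and how reads of several alignments were treated. All 29 columns of values matched a sample, by title.

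One model with a term for each group held all 24 C4-2 libraries, a second held the 5 22Rv1 libraries, and a joint model of 11 libraries tested whether the CC-115 effect differed by line. After filterByExpr and TMM scaling, edgeR 4.0.16 (on R 4.3.3 with limma 3.58.1) gave robust quasi-likelihood F-tests. Benjamini-Hochberg adjustment ran over every gene of a comparison, and calls needed an adjusted p below 0.05. Each standard error is |log2 fold change| over the root of F. The method was tested on simulated data in which few genes changed. For CC-115 against Ctrl in C4-2 it called 36.4% of 1.5-fold and 65.7% of 2-fold changes. For CC-115 in 22Rv1 it called 4.5% and 43.9%, and for the line difference 4.8% and 46.3%. Ratios of low counts carry exact 95% intervals that cover counting error only, as PCR copies were not marked.

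The members and lists were chosen with earlier results of these data known. The 9 genes were named whatever their values. Of the other pathway genes, up to 4 called per role and comparison, largest change first and with a mean log2 CPM of at least 0, could be named, and part of these are not reported here. Nearest patterns were the 3 protein-coding genes of highest Pearson correlation of log2 CPM (prior count 2). Promoter windows came from RefSeq (GRCh38.p14), apart from the hg19 counts, and symbols matched 8 of the 9 genes.

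Alternatives were RLE scaling, no or a stricter low-count filter, only the groups compared, a replicate block, each library left out and DESeq2 1.42.0. Further ones were removal of the libraries that stood apart, and removal of small RNA classes and mitochondrial RNA. The small classes included small nuclear, small nucleolar, micro, ribosomal and miscellaneous RNA, with 7SK. The alternatives for the other pathway genes were chosen after seeing the data. Tables and plots were made in Python 3.11.15 (numpy 2.4.6, pandas 2.3.3, matplotlib 3.10.9).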

Additional observations from a re-analysis of the deposited data

Results flagged for a closer look

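The effect of CC-115 differed between 22Rv1 and C4-2 by the interaction test of edgeR's quasi-likelihood fit in 5 of the 9 genes, against 15.2% of all genes called in the same direction. The differences, 22Rv1 minus C4-2 on the log2 scale, were 2.76 for OAS1 (adjusted p 0.00815), 2.47 for OAS3 (adjusted p 4.29e-07), 1.43 for ISG15 (adjusted p 3.89e-05), 1.11 for MX1 (adjusted p 8.18e-04) and 2.32 for GBP2 (adjusted p 1.02e-04). MX1 and GBP2 had higher fitted levels with CC-115 in 22Rv1, of which MX1 passed the test, while GBP2 fell in C4-2. OAS1 held 3 to 10 reads per 22Rv1 library, too few to be tested in that line alone, and passed the joint filter through its C4-2 reads. Its difference was not called without the first 22Rv1 CC-115 library (2.47, adjusted p 0.0882).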

How the results depend on the processing

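The count of the 9 genes called was recomputed in 18 comparisons. RLE scaling, the replicate block and removal of small RNA classes and mitochondrial RNA moved none of the counts by over 1.5 times. With the replicate block 7 genes were called for CC-115 against Ctrl. Deviations of same-numbered C4-2 libraries correlated at -0.342 to 0.140, with a median of -0.005. The labels name no pairing, and whether samples were paired by number cannot be settled from these values. DESeq2 moved 1 count, calling 1 gene in place of 0 for the CC-115 interaction with Enza.

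Without the first Enza and first CC-115+Enza libraries the counts were 2 in place of 1 for NU7441 and 3 in place of 1 for CC-223 against Ctrl, while the share of all genes called went from 3.39% to 21.7% and from 23.9% to 42.8%. They were then 1 in place of 0 for NU7441+Enza against Enza, for CC-223+Enza against CC-223 and for the CC-115 interaction, and 1 in place of 2 for CC-115+Enza against CC-115. Fitting only the groups compared gave 3 for CC-223 against Ctrl, 1 in place of 3 for CC-223+Enza against Enza, 1 for CC-115+Enza against CC-115 and 2 for CC-223+Enza against CC-223. In these the share of all genes called went from 23.9% to 47.5%, from 27.99% to 18.9%, from 23.8% to 9.19% and from 12.4% to 36.5%. The cause of these moves was not tested. With no filter, which changes the genes tested, counts were 1 for Enza, 2 for NU7441+Enza against Enza, 1 for CC-115+Enza against CC-115, and 1 and 3 for the interactions of NU7441 and CC-115. A stricter filter gave 2 for CC-223 and 1 for Enza against Ctrl, 3 in place of 5 for CC-115 against NU7441 and 1 for the CC-115 interaction.

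Leaving out 1 library at a time gave 6 to 7 genes for CC-115, 1 to 1 for NU7441, 0 to 1 for CC-223 and 0 to 2 for Enza against Ctrl. Against Enza the ranges were 0 to 2 for NU7441+Enza, 6 to 6 for CC-115+Enza and 1 to 3 for CC-223+Enza, and against the inhibitor alone 1 to 1, 1 to 3 and 0 to 0. They were 5 to 5 for CC-115 against NU7441, 6 to 6 against CC-223, 1 to 1 for NU7441 against CC-223, 0 to 0, 0 to 1 and 0 to 0 for the interactions of NU7441, CC-115 and CC-223, 2 to 2 in 22Rv1 and 4 to 6 for the line difference.

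Of 1029 alternative values in 73 gene comparisons the text prints, 954 kept direction and side of the threshold, 23 lost and 37 gained a call and 15 changed sign, in 6 gene comparisons not called in the fit reported. ISG15 ranged from -0.016 to 0.82 for Enza against Ctrl, without the first and the second Enza library. GBP2 for CC-115 against NU7441 ranged from -0.20 to 0.057, with reversed values of 0.057, 0.05 and 0.04. ISG15 in 22Rv1 ranged from -0.23 to 0.25, without the second and the first CC-115 library, and was -0.02 without the second Control library. IFI27 for CC-115 against Ctrl ranged from -0.70 to 0.23, without the first and the third CC-115 library. IRF9 for CC-115+Enza against Enza ranged from -0.60 to 0.34, without the first Enza and first CC-115+Enza libraries and without the third Enza library. The value of -0.60 was called. IRF9 was at -0.32 without the first Enza library alone and at 0.056 with the stricter filter. In 22Rv1 IRF9 ranged from -0.034 to 0.44. For other pathway genes 819 of 842 values were unchanged and 23 lost a call. Depth limited OAS1, IFIT1 and IFI27, which held 0 to 10 reads per 22Rv1 library.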
